A study of Homo sapiens with 12 samples.

Results

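The genes described here encode 10 integrin subunits: the α chains ITGA2, ITGA3, ITGA5, ITGA6 and ITGAV and the β chains ITGB1, ITGB3, ITGB4, ITGB5 and ITGB6. They were listed by family, and every probe set that names 1 of them alone was taken. Such probe sets exist for 9 of the 10 genes. There were 30 of them among 41097 single-gene probe sets for 19775 genes: 7 each for ITGB1 and ITGB3, 5 for ITGB4, 4 for ITGB5, 2 each for ITGA2 and ITGA6, and 1 each for ITGA3, ITGA5 and ITGAV. ITGB6 was not tested, because the 4 probe sets annotated to it also name a long noncoding RNA gene.

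The RNA came from 4 lines of SKBR-3, a human breast cancer cell line with an amplified HER2 gene (ERBB2), with 3 biological replicates and 3 arrays per line. All 4 lines share the sort of SKBR-3 cells for high HER2 that gave SKR6. SKR6-Vector is SKR6 with the empty retroviral vector pQCXIP, and SKR6CA is SKR6 with a retrovirus for constitutively active NF-kB relA/p65 (CAp65); both were selected with puromycin. SKR6LR is SKR6 after several months in lapatinib, a kinase inhibitor of EGFR and HER2, at concentrations raised from 0.2 to 5 µM. Cells grew for 48 hours in medium with 10% serum before RNA was taken, and the resistant cells were kept in 0.2 µM lapatinib, so selection and drug exposure at harvest cannot be told apart in SKR6LR. The labels do not say what drives the p65 transgene or whether any line is a single clone.

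Integrins are receptors made of 1 α and 1 β chain that bind the matrix outside the cell and, through talin, kindlin and other linkers, the cytoskeleton inside it. The α chain largely sets the ligand: α2 with β1 binds collagen, α3 and α6 bind laminins, α5 with β1 binds fibronectin, and αV pairs with several β chains to bind ligands with the RGD motif, latent TGF-β among them. The α6β4 pair is the exception in its intracellular link, since it anchors keratin filaments in hemidesmosomes. In the mammary gland, α6 and β4 are best known from basal and myoepithelial cells next to the basement membrane.

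The promoters of 3 members that differed between lines are printed first. Active p65, carried by SKR6CA alone, is a transcription factor, and its recognition sequence can be looked for there. Of the 3, ITGA6 was not called in SKR6CA against SKR6-Vector or SKR6. Each sequence is the 250 bases before the outermost RefSeq start of the gene, 5′ to 3′ on the gene's strand, in build GRCh38.p14. Capitals mark a match to the NF-kB consensus.
ITGA6, chr2:172427086-172427335, plus strand: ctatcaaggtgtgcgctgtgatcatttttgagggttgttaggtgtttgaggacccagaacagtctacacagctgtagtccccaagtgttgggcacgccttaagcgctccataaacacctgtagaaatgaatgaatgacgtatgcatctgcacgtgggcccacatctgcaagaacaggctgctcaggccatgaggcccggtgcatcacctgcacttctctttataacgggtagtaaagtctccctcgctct
ITGAV, chr2:186589806-186590055, plus strand: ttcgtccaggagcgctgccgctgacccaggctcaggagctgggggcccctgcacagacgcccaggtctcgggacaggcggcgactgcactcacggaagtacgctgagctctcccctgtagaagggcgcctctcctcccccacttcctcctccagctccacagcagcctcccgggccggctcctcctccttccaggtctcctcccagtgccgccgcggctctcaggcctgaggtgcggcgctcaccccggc
ITGB1, chr10:32958231-32958480, minus strand: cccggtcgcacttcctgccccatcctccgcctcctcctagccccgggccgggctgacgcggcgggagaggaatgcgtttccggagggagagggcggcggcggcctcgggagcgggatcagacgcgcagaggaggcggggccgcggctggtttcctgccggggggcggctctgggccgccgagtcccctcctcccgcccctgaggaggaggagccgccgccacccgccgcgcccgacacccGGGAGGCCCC

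RefSeq gave 12 windows of this length for 7 of the 10 members, inner starts of a gene included. The NF-kB consensus, searched on both strands, matched 1 of the 12 windows, the ITGB1 window printed above. The match lies on the complementary strand and begins 10 bases before the start. It matched 6.88% of all 35116 promoter windows of this length. The AP-1 motif TGANTCA, also searched on both strands, matched 0 of the 12 windows and 6.57% of all windows. A match describes the letters of the window and nothing was measured about binding.

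The deposited values are on the log2 scale, so a difference of 1 is a doubling. Array medians lay between 5.74 and 5.77 and values between 3.00 and 15.28. The SKR6LR replicates varied more, with a replicate SD over all genes of 0.209 against 0.0958 to 0.107 in the other lines. For the actin control, the 3′ probe set exceeded the 5′ one by 2.32 in SKR6LR replicate 3 and by 1.03 to 1.73 on the 11 other arrays. ERBB2 averaged 12.45 in SKR6LR, 13.83 in SKR6, 13.92 in SKR6-Vector and 14.04 in SKR6CA, so that the resistant line was the low one (limma, -1.38 against SKR6, adjusted p = 6.38e-10). Over 10 luminal and HER2 markers the mean level per array was 11.01 to 11.24 in SKR6LR and 11.61 to 11.64 in SKR6. Of these markers 5 were lower and 3 higher (all genes: 30.3% lower, 21.0% higher), with a median difference of -0.49. The part of this shift in the integrin results was not tested. The line means of the epithelial marker EPCAM ran from 13.31 to 13.65, while E-cadherin (CDH1) lay at 4.24 to 4.28 in all 4 lines. RELA differed between SKR6CA and SKR6-Vector by -0.056 (limma, adjusted p = 0.771) and, on its second probe set, by 0.20 (adjusted p = 0.239), and whether these probe sets read the transgene is not known. Over 8 basal and myoepithelial markers the mean level per array was 5.40 to 5.44 in SKR6, 6.25 to 6.28 in SKR6-Vector, 5.49 to 5.57 in SKR6CA and 8.66 to 8.95 in SKR6LR. Of the 8, 5 rose and 0 fell in SKR6LR over SKR6 (all genes: 21.0% higher, 30.3% lower). Of the same 8, 3 rose in SKR6-Vector over SKR6 (11.4% of all genes) and 3 fell in SKR6CA against SKR6-Vector (14.2%). These markers thus moved with several integrins described below, and their part in those results was not tested. In such bulk samples a change in the share of cells and a change in RNA per cell cannot be told apart. Markers of other cell types were low on average. On any array the mean was at most 6.001 over 9 fibroblast markers, 5.83 over 7 endothelial markers and 5.54 over 8 leukocyte and platelet markers. In the same order, 7, 5 and 6 of them had a line mean under 6 in SKR6, and 6, 3 and 5 in SKR6LR. In SKR6LR over SKR6, where 21.0% of all genes rose and 30.3% fell, 2 of the fibroblast markers rose and 0 fell. Of the endothelial markers 2 rose and 1 fell, and of the leukocyte and platelet markers 1 rose and 2 fell. The widest of these differences were 4.92 for COL3A1, 3.83 for CDH5 and 1.72 for CD14, and CDH5 was also higher than in SKR6 in SKR6-Vector, by 2.96, and in SKR6CA, by 3.08.

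In SKR6LR 7 of the 9 measured integrin genes rose over SKR6 and 1 fell, the highest count of calls among the 4 comparisons described. A call is an adjusted p under 0.05 in limma, and each gene is counted by its probe set with the highest mean. Among all 19775 genes 51.3% were called in this comparison, 21.0% as higher and 30.3% as lower. The median difference of the 9 genes was 1.08, against -0.058 over all genes. The arrays of both lines did not overlap for 8 of the 9, and for 57.9% of all genes. SKR6-Vector against SKR6 gave 3 integrin genes higher and 0 lower; 23.7% of all genes were called there, 11.4% as higher and 12.3% as lower. The members' median was 0.19, against -0.015 over all genes. The arrays did not overlap for 6 of the 9, and for 48.2% of all genes. Without SKR6LR replicate 1 or replicate 2, which are in neither line, the 3 rises became 5, with ITGA2 and ITGB5 added. In the fit to all 12 arrays the other probe sets of these genes were not called. They gave 0.066 for ITGA2 and -0.12, 0.081 and 0.065 for ITGB5.

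Against SKR6-Vector, SKR6CA had 5 of 9 integrin genes lower and 0 higher. Here 25.1% of all genes were called, 14.2% as lower and 10.9% as higher, and the median difference was -0.20 for the members and 0.0033 for all genes. The arrays did not overlap for 8 of the 9, and for 45.5% of all genes. Against SKR6 the same SKR6CA arrays gave 1 higher and 1 lower, with 22.5% of all genes called (9.23% higher and 13.3% lower). The members' median was then 0.090, against -0.013 for all genes, and the arrays did not overlap for 6 of the 9 (45.5% of all genes). The comparisons share arrays: SKR6-Vector is the control of one and the test line of another, and SKR6 is the control of 3. A level raised in SKR6-Vector therefore enters both of the comparisons that contain it.

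**Figure D1:**
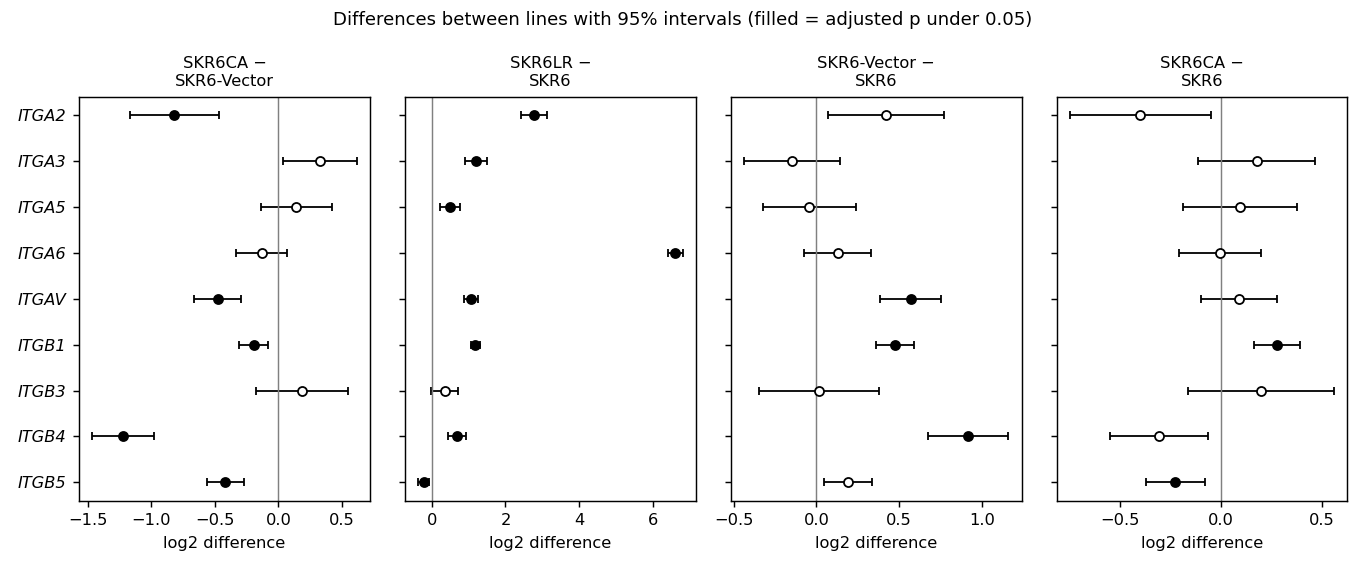
Log2 differences between lines for the 9 measured integrin genes (rows) in 4 comparisons (panels, each with its own horizontal scale); points are limma estimates from 3 arrays per line, bars are 95% intervals, and filled points have an adjusted p under 0.05. ITGA6 stands at 6.60 in SKR6LR against SKR6, while in SKR6CA against SKR6-Vector the 5 filled points all lie below 0.

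Among the 9 measured genes the widest span of line means was that of ITGA6, a laminin-binding chain. ITGA6, the α6 chain, read 4.06, 4.03 and 4.13 in SKR6, 4.21, 4.22 and 4.17 in SKR6-Vector, 4.13, 4.14 and 3.93 in SKR6CA, and 10.55, 10.56 and 10.90 in SKR6LR. The 9 arrays of the first 3 lines lay near the bottom of the array's range, and every SKR6LR array lay more than 6 above them. The log2 difference of 6.60 (SE 0.094, limma adjusted p = 1.95e-14) was exceeded in size by 0.228% of all genes. A second ITGA6 probe set rose by 5.18 (SE 0.10, adjusted p = 3.50e-13). Between the other 3 lines ITGA6 was not called on either probe set, and the 95% interval of SKR6CA minus SKR6 ran from -0.21 to 0.20.

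ITGB4, the β4 chain that pairs with α6 alone, ordered the lines differently from ITGA6. It read 6.80, 6.85 and 6.90 in SKR6, 7.73, 7.92 and 7.66 in SKR6-Vector, 6.61, 6.77 and 6.25 in SKR6CA, and 7.51, 7.55 and 7.59 in SKR6LR. SKR6-Vector and SKR6LR were thus the high lines, and neither overlapped SKR6 or SKR6CA. ITGB4 rose by 0.92 in SKR6-Vector over SKR6 (SE 0.11, limma adjusted p = 7.30e-05) and by 0.70 in SKR6LR over SKR6 (adjusted p = 0.000153). SKR6CA lay lower than SKR6-Vector by a log2 difference of -1.22 (adjusted p = 5.99e-06), the largest fall among the integrins in that comparison, and 1.93% of all genes differed by more. Against SKR6 the SKR6CA difference was -0.30 and was not called (adjusted p = 0.0805). SKR6LR lay below SKR6-Vector without overlap, but the difference of -0.22 was not called against the spread pooled over the 4 lines (adjusted p = 0.137). These ITGB4 results rest on 1 of 5 probe sets: on the other 4 no call was made in any of the 4 comparisons, and their SKR6LR minus SKR6 differences ran from -0.12 to 0.00. With the mean of its 5 probe sets, ITGB4 differed by 0.088 in SKR6LR over SKR6 (adjusted p = 0.236) and by 0.16 in SKR6-Vector over SKR6 (adjusted p = 0.0630).

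ITGA3, the α3 chain, which binds laminins with β1, read 6.57, 6.47 and 6.19 in SKR6, 6.13, 6.25 and 6.40 in SKR6-Vector, 6.59, 6.68 and 6.49 in SKR6CA, and 7.40, 7.92 and 7.52 in SKR6LR. All SKR6LR arrays were above the 9 others, and the other lines lay close together. The rise over SKR6 was 1.20 (SE 0.13, limma adjusted p = 5.51e-06), or 2.30-fold. SKR6CA lay 0.33 above SKR6-Vector without overlap, but this was not called (adjusted p = 0.109). The call is sensitive to 1 array: without SKR6LR replicate 2, which belongs to neither line, the same difference had an adjusted p of 0.0334.

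**Figure D2:**
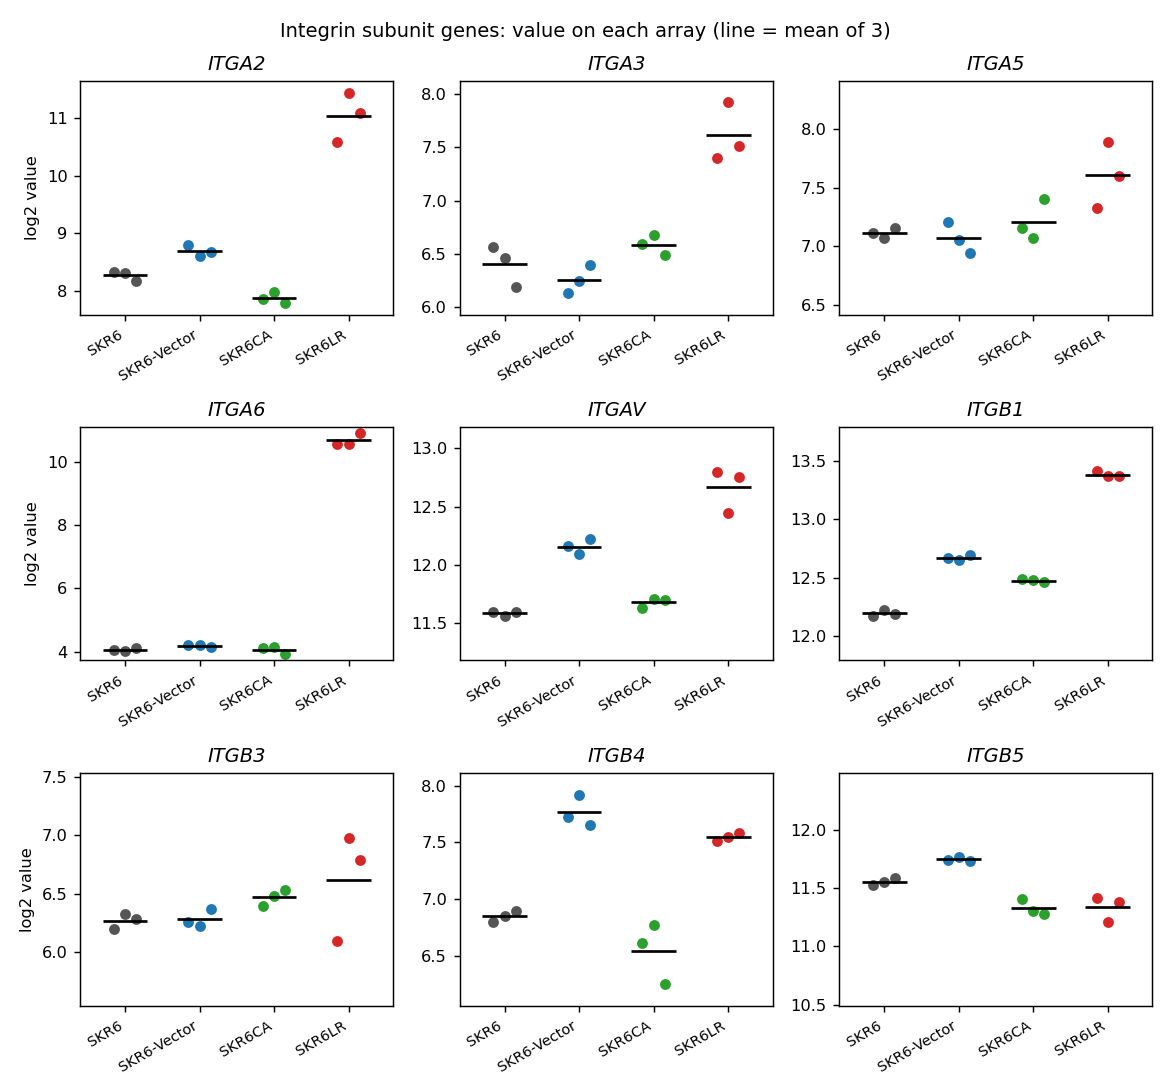
Log2 value of each array (points) and mean of 3 arrays (black line) for the representing probe set of 9 integrin genes in the 4 lines; vertical scales differ between panels and levels of different genes are not comparable. SKR6LR is above every other array for ITGA2, ITGA3, ITGA6, ITGAV and ITGB1, and SKR6-Vector is high for ITGB4.

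ITGA2, the collagen-binding α2 chain, read 8.32, 8.32 and 8.18 in SKR6, 8.80, 8.60 and 8.67 in SKR6-Vector, 7.86, 7.97 and 7.78 in SKR6CA, and 10.59, 11.45 and 11.09 in SKR6LR. On this representing probe set the 4 lines did not overlap with one another. ITGA2 rose from 8.27 ± 0.08 in SKR6 to 11.04 ± 0.43 in SKR6LR (mean ± SD, n = 3 and 3), by 2.77 (SE 0.16, limma adjusted p = 9.94e-09). It was lower in SKR6CA than in SKR6-Vector by a difference of -0.82 (adjusted p = 0.00231). The second ITGA2 probe set gave 1.92 for SKR6LR over SKR6 (adjusted p = 1.92e-07), but only -0.21 for SKR6CA against SKR6-Vector (adjusted p = 0.40). It gave 0.066 for SKR6-Vector over SKR6 (adjusted p = 0.830) and -0.15 for SKR6CA against SKR6 (adjusted p = 0.593), both with overlapping arrays. On the representing probe set SKR6-Vector over SKR6 (0.42, adjusted p = 0.0882) and SKR6CA against SKR6 (-0.40, adjusted p = 0.110) missed the threshold. Both were called, with the same differences, when SKR6LR replicate 1 or replicate 2 was left out (adjusted p = 0.00650 and 0.0169 for SKR6-Vector, 0.00979 and 0.0235 for SKR6CA), since the spread of ITGA2 is pooled over the 4 lines.

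ITGB1, the β1 chain shared by α2, α3, α5, α6 and αV, separated all 4 lines. It read 12.17, 12.22 and 12.19 in SKR6, 12.67, 12.65 and 12.69 in SKR6-Vector, 12.48, 12.48 and 12.46 in SKR6CA, and 13.41, 13.37 and 13.37 in SKR6LR. The SD of the replicates was at most 0.027 in any line, and no line overlapped another. ITGB1 rose by 1.19 in SKR6LR over SKR6 (SE 0.053, limma adjusted p = 7.61e-10), or 2.28-fold. It also rose by 0.47 in SKR6-Vector (adjusted p = 3.49e-05) and by 0.28 in SKR6CA (adjusted p = 0.00247), both over SKR6. Against SKR6-Vector, SKR6CA was lower by 0.20 on the log2 scale (difference -0.20, adjusted p = 0.0173), and this call was lost without SKR6-Vector replicate 3 (adjusted p = 0.0649) or SKR6CA replicate 3 (adjusted p = 0.0562). The 2 ITGB1 probe sets without an _x_at, _s_at or _a_at suffix lie near the bottom of the scale, and the higher of them differed by 0.063 in SKR6LR over SKR6 (adjusted p = 0.573 in the fit limited to such probe sets). A further pair of ITGB1 probe sets gave 1.60 and 1.45 for SKR6LR, 0.65 and 0.63 for SKR6-Vector, and 0.34 and 0.38 for SKR6CA, all over SKR6 and all called. Against SKR6-Vector they gave -0.30 and -0.25 for SKR6CA (adjusted p = 0.00151 and 0.0495), and the second of these calls was lost without any 1 of the 9 arrays outside SKR6LR (adjusted p = 0.0558 to 0.151).

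ITGAV, the αV chain, which pairs with β1, β3, β5 and β6 among others, read 11.60, 11.57 and 11.60 in SKR6, 12.16, 12.09 and 12.22 in SKR6-Vector, 11.63, 11.71 and 11.70 in SKR6CA, and 12.80, 12.44 and 12.76 in SKR6LR. SKR6LR was highest and SKR6-Vector next, and SKR6CA lay just above SKR6. The rise over SKR6 was 1.08 in SKR6LR (SE 0.086, limma adjusted p = 2.37e-07) and 0.57 in SKR6-Vector (adjusted p = 0.000402). SKR6CA was lower than SKR6-Vector (-0.48, adjusted p = 0.00125) and did not differ detectably from SKR6 (0.090, 95% interval -0.097 to 0.28, adjusted p = 0.558).

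ITGB5, the β5 chain, whose αVβ5 pair binds vitronectin, went the other way in SKR6LR. It read 11.52, 11.56 and 11.59 in SKR6, 11.74, 11.76 and 11.74 in SKR6-Vector, 11.41, 11.31 and 11.27 in SKR6CA, and 11.41, 11.21 and 11.38 in SKR6LR. SKR6CA and SKR6LR were both below SKR6 on every array. The difference from SKR6 was -0.22 in SKR6LR (limma adjusted p = 0.0152) and -0.23 in SKR6CA (adjusted p = 0.0326), and SKR6CA differed from SKR6-Vector by -0.42 (adjusted p = 0.000566). The SKR6LR call was lost without SKR6 replicate 3 (adjusted p = 0.0537) or SKR6LR replicate 2 (adjusted p = 0.0503). The SKR6CA call against SKR6 was lost without any of SKR6 replicates 1, 2 and 3 or SKR6CA replicates 2 and 3 (adjusted p = 0.0642 to 0.120). A second ITGB5 probe set fell in SKR6LR by 0.63 (adjusted p = 5.67e-06) and in SKR6CA by 0.29 (adjusted p = 0.0116), both against SKR6, and the 2 _x_at probe sets were not called in any of these comparisons. Against SKR6-Vector the second probe set gave -0.16 for SKR6CA, with overlapping arrays and no call (adjusted p = 0.128), and the mean of the 4 probe sets gave -0.11 (adjusted p = 0.175).

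ITGA5, the fibronectin-binding α5 chain, read 7.12, 7.07 and 7.16 in SKR6, 7.21, 7.06 and 6.94 in SKR6-Vector, 7.15, 7.07 and 7.41 in SKR6CA, and 7.33, 7.89 and 7.60 in SKR6LR. Only SKR6LR stood clear of SKR6, by 0.49 (SE 0.13, limma adjusted p = 0.00625), and SKR6CA overlapped it. ITGB3, the β3 chain of the αVβ3 vitronectin receptor, read 6.20, 6.33 and 6.29 in SKR6, 6.26, 6.22 and 6.37 in SKR6-Vector, 6.40, 6.48 and 6.53 in SKR6CA, and 6.09, 6.98 and 6.79 in SKR6LR. The SKR6LR replicates lay on both sides of SKR6, and the difference of 0.35 was not called (adjusted p = 0.105). Without SKR6LR replicate 1 it was 0.61 and was called (adjusted p = 3.79e-05).

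Probe sets of one gene did not always move together. Of the 30 integrin probe sets 14 rose and 2 fell in SKR6LR over SKR6, where 48.5% of all single-gene probe sets were called, 20.2% as higher and 28.3% as lower. In SKR6CA against SKR6-Vector 1 rose and 7 fell, against 22.4% of all called, 10.2% higher and 12.2% lower. In SKR6-Vector over SKR6 5 rose and 0 fell (20.7% of all, 10.0% higher and 10.7% lower), and in SKR6CA against SKR6 3 rose and 2 fell (19.5% of all, 8.52% higher and 10.9% lower). For ITGB1, 3 probe sets at line means above 9 in SKR6 changed in each of these comparisons, while 4 others lay below 4 in SKR6, and 1 of these was called, in SKR6LR (0.45). For ITGB3, 2 of 7 probe sets were called in SKR6LR, at 1.36 and 0.36, and neither is the representing one. The first of these read 4.14, 4.30 and 4.04 in SKR6 and 4.70, 6.36 and 5.48 in SKR6LR, so its replicates spread widely. The single rise in SKR6CA over SKR6-Vector was an ITGB3 probe set as well, at 0.27 (limma adjusted p = 0.0463), and this call was lost when any 1 of 8 arrays was left out: all 3 of SKR6, all 3 of SKR6-Vector, and SKR6CA replicates 1 and 3 (adjusted p = 0.0562 to 0.190). Where in the transcript each probe set lies was not analysed here.

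**Figure D3:**
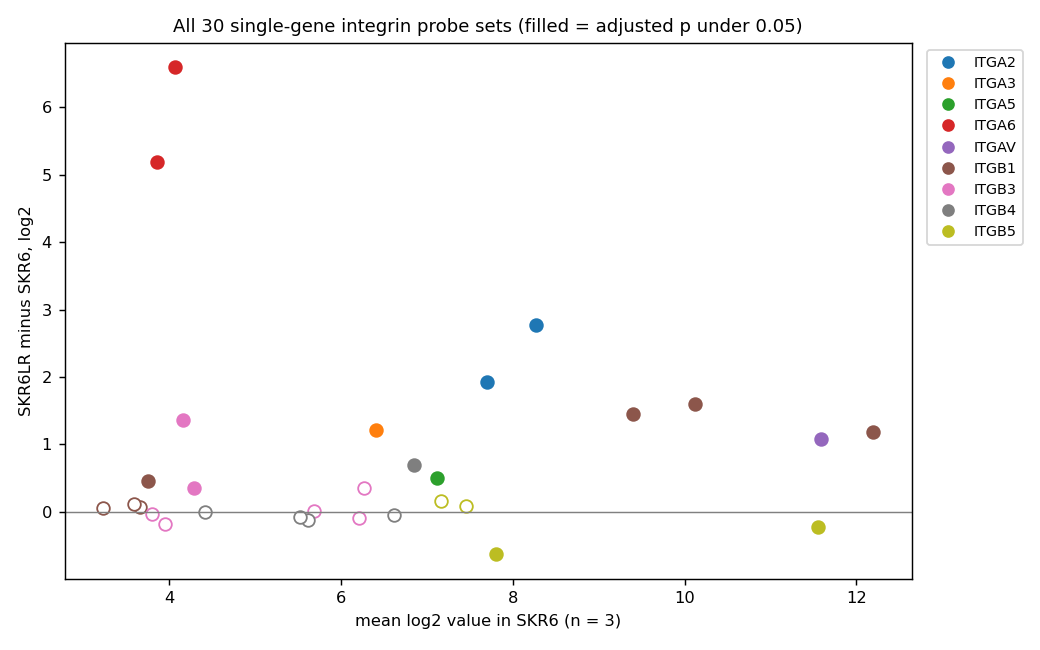
Difference SKR6LR minus SKR6 (log2, vertical) against the mean of the 3 SKR6 arrays (log2, horizontal) for the 30 integrin probe sets, coloured by gene; filled points have an adjusted p under 0.05, and horizontal positions of different probe sets are not comparable as transcript levels. The 2 ITGA6 points stand at 5.18 and 6.60, and the open points of ITGB1, ITGB3 and ITGB4 lie near 0.

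Ordering the 4 lines by mean set SKR6LR first for 7 of the 9 genes. It differed from the next line for 6 of these 7, the exception being ITGB3. The share of all genes with SKR6LR first was not counted, and 51.3% of all genes were called in SKR6LR over SKR6. Whether this order is particular to the integrins was therefore not tested. For ITGB4 and ITGB5 the first line was SKR6-Vector. All 3 neighbouring pairs differed for ITGB1, and 2 of 3 for ITGAV, whose SKR6CA and SKR6 means did not. Here lines are said to differ where the pair was called, against the spread pooled over the 4 lines. For ITGA2, ITGA3, ITGA5 and ITGA6 the only neighbouring pair that differed was SKR6LR and the line below it, and for ITGB3 no pair did. The order of ITGB4 was SKR6-Vector, SKR6LR, SKR6 and SKR6CA, with a called step only between SKR6LR and SKR6. In ITGB5, SKR6LR and SKR6CA differed by 0.0049 (adjusted p = 0.964).

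Among the 16 other integrin subunit genes 2 rose and 5 fell in SKR6LR over SKR6 (all genes: 21.0% higher, 30.3% lower). Their median was -0.053. The 2 rises became 1 without SKR6 replicate 1, SKR6LR replicate 1 or SKR6LR replicate 3, and the 5 falls became 3 without SKR6 replicate 2, SKR6 replicate 3 or SKR6LR replicate 2. ITGB8, an αV partner that can activate latent TGF-β, rose by 7.40 (limma adjusted p = 1.27e-14), and 4 of its 5 probe sets were called. ITGA9, an α chain that binds tenascin and other ligands, fell by 2.82, and ITGAE, the chain that pairs with β7 to bind E-cadherin, fell by 1.99. The other 3 falls were smaller: ITGA2B, the platelet chain, at -0.37, ITGA8 at -0.24 (adjusted p = 0.0477) and ITGAL, a leukocyte chain, at -0.21 (adjusted p = 0.0326). The second rise was ITGA11, at 0.24. In SKR6-Vector over SKR6 1 rose (ITGB8, by 0.45) and 1 fell (ITGA9, by 1.10), beside 11.4% and 12.3% of all genes. These calls rest on 1 of 5 ITGB8 and 1 of 4 ITGA9 probe sets. The ITGB8 means, 4.21 in SKR6 and 4.66 in SKR6-Vector, lay near the bottom of the scale. In SKR6CA over SKR6-Vector 1 rose (ITGA9, by 1.07, on 2 of 4 probe sets) and 0 fell (all genes: 10.9% higher, 14.2% lower). Against SKR6 the ITGA9 difference in SKR6CA was -0.028 (adjusted p = 0.903). ITGB8 was higher there by 0.66, at a low mean of 4.86 and called on 1 of its 5 probe sets.

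Laminins, the ligands of α3 and α6, shifted in SKR6LR over SKR6, with 5 of 9 measured chains higher, 2 lower and a median of 0.46. Over all genes 21.0% were higher and 30.3% lower. LAMC1, the γ chain common to many laminins, rose by 4.88 on one probe set and by 8.12 on the other (limma adjusted p = 6.75e-14 for the first). LAMB3, a chain of the epithelial laminin bound by α6β4, rose by 3.65 and LAMA5 by 1.19. In SKR6-Vector over SKR6 3 chains rose and 0 fell (median 0.18; all genes: 11.4% higher, 12.3% lower), with LAMB1 at 0.88. In SKR6CA against SKR6-Vector 0 rose and 3 fell (median -0.13; all genes: 10.9% higher, 14.2% lower), with LAMB2 at -0.79 and LAMB1 at -0.50. SKR6CA against SKR6 gave 1 higher, LAMB1 by 0.38, and 2 lower (median 0.056), beside 9.23% and 13.3% of all genes.

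RGD and other matrix ligands differed in all 4 comparisons. In SKR6LR over SKR6 11 of 18 rose and 3 fell (all genes: 21.0% higher, 30.3% lower), with a median of 2.88. EDIL3, an RGD protein that binds αV integrins, rose by 7.27, COL4A1 by 5.95, FBN1 by 5.62 and fibronectin (FN1) by 4.69. The 3 falls were those of TGFB3 (-3.35), TGFBI (-2.82) and LTBP1 (-1.74). Over SKR6, SKR6-Vector had 11 higher and 0 lower (median 0.48), beside 11.4% and 12.3% of all genes. The rises were led by FN1 at 4.08 (limma adjusted p = 8.22e-13), EDIL3 at 3.36, FBN1 at 2.99 and nephronectin (NPNT), a ligand of α8β1, at 2.84. In SKR6CA against SKR6-Vector 2 rose and 6 fell (median -0.17), beside 10.9% and 14.2% of all genes. EDIL3 differed by -3.29 (called on 1 of 3 probe sets), FBN1 by -2.16 (2 of 3) and COL4A1 by -1.18 (1 of 2), while CCN2 rose by 1.10. Over SKR6, SKR6CA had 7 higher and 1 lower (median 0.099; all genes: 9.23% higher, 13.3% lower), with FN1 at 3.18, CCN2 at 2.36 and NPNT at 2.00. The 1 fall was lost without any 1 array of SKR6 or SKR6CA. EDIL3 did not differ detectably there (0.070, adjusted p = 0.748). All 7 FN1 probe sets were called in the same direction in SKR6LR, SKR6-Vector and SKR6CA over SKR6, whereas EDIL3 was called on 1 of 3 in SKR6-Vector. NPNT was called on 1 of 2 in SKR6-Vector and in SKR6CA over SKR6, where its other probe set gave 0.28 and 0.058.

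**Figure D4:**
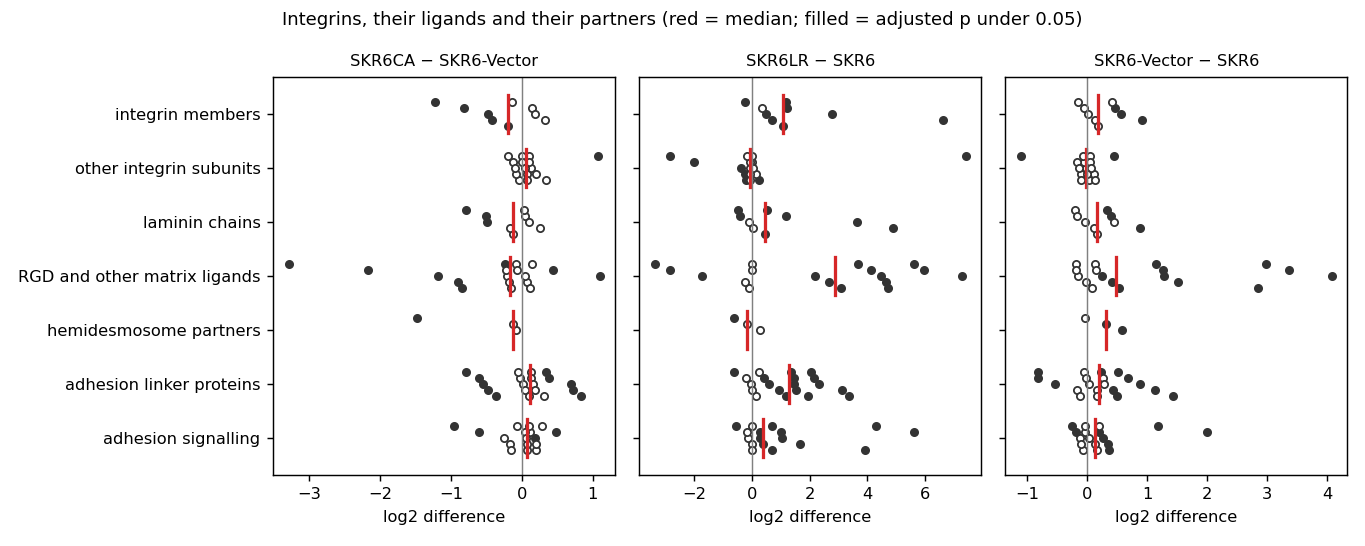
Log2 differences of single genes (points) in 3 comparisons for the 9 integrin genes and 6 lists of related genes, with the median of each list in red and genes with an adjusted p under 0.05 filled; horizontal scales differ between panels. In SKR6LR against SKR6 the medians are 1.08 for the integrins, 2.88 for matrix ligands and 1.28 for linker proteins, and -0.053 for the other integrin subunits.

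Inside the cell, linker proteins of adhesions were mostly higher in SKR6LR: 14 of 20 rose over SKR6 and 1 fell, with a median of 1.28. Over all genes 21.0% rose and 30.3% fell. FERMT1, the epithelial kindlin that activates β chains, rose by 3.37 (limma adjusted p = 1.31e-10), TNS4, a tensin that binds β1 tails, by 3.12, TNS3 by 2.32 and α-actinin (ACTN1) by 2.16. SKR6-Vector over SKR6 gave 8 rises and 3 falls (median 0.20), beside 11.4% and 12.3% of all genes. LPP stood at 1.44, the kindlin FERMT2 at 1.13, TNS3 at 0.88 and TNS1 at -0.81. TNS3 was called there on 1 of 2 probe sets, and the other gave -0.014. In SKR6CA against SKR6-Vector 5 rose and 5 fell (median 0.11), beside 10.9% and 14.2% of all genes. TNS1 stood at 0.84, TNS4 at 0.73, zyxin (ZYX) at 0.70 and FERMT1 at -0.78. Over SKR6, SKR6CA had 8 higher and 1 lower (median 0.14; all genes: 9.23% higher, 13.3% lower), led by LPP at 1.63.

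Adhesion kinases and adaptors gave 11 of 17 higher and 1 lower in SKR6LR over SKR6 (median 0.40), beside 21.0% and 30.3% of all genes. The SRC-family kinase LYN rose by 5.62, NEDD9, a scaffold of focal adhesion kinase, by 4.31, FYN by 3.92 and SRC by 1.68, though SRC was called higher on 1 and lower on 1 of its 7 probe sets. SKR6-Vector over SKR6 gave 6 rises and 2 falls (median 0.14; all genes: 11.4% higher, 12.3% lower), with NEDD9 at 2.00 and FYN at 1.19. In SKR6CA against SKR6-Vector 2 rose and 2 fell (median 0.077), in a comparison where 10.9% of all genes rose and 14.2% fell. FYN stood at -0.95 there, with 3 of its 5 probe sets called lower and the highest at 0.23. Against SKR6 the SKR6CA counts were 6 and 1 (median 0.16; all genes: 9.23% higher, 13.3% lower), with NEDD9 at 1.75.

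Of the hemidesmosome partners of α6β4, 3 of 4 were measured. In SKR6LR over SKR6 0 rose and 1 fell (all genes: 21.0% higher, 30.3% lower). The fall was that of the tetraspanin CD151, by 0.60, and the plakin gene DST differed by 0.27 (limma adjusted p = 0.0752). Over SKR6, SKR6-Vector had 2 higher (11.4% of all genes), CD151 by 0.33 and DST by 0.59. The CD151 call was lost without any 1 array of these lines (adjusted p = 0.0719 to 0.103). DST was lower in SKR6CA than in SKR6-Vector, at -1.48 (adjusted p = 1.82e-06), and than in SKR6, at -0.89. Plectin (PLEC) was not called in any of the 4 comparisons. The DST calls are of a gene with 10 probe sets, of which 4 were called higher and 1 lower in SKR6-Vector over SKR6.

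Patterns across the 12 arrays were compared after each probe set was centred on its own mean, for the 3 integrins with the widest span of line means. The genes nearest to ITGA6 were IGF2BP2, SLC2A3 and HS6ST2, with root mean square differences of 0.23 to 0.25 on the log2 scale. ITGA2 lay nearest to PPP1R3B, ENC1 and SCCPDH (0.13 to 0.19), and ITGA3 to IER5, C1orf54 and RUBCNL (0.11 to 0.14). The 12 points of each pattern are 3 arrays of each of 4 lines, and the genes share those arrays.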

How the data were processed

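Per the labels' protocols, total RNA of 12 cultures was copied from oligo-dT primers carrying a T7 promoter, transcribed with biotin and hybridised to 3′ arrays (54675 probe sets). The authors deposited log2 values; RMA and limma are named in the submitters' processing notes, with no version or parameter. RMA normalises quantiles over arrays, so levels are relative and low values are compressed and carry no detection call; the number of arrays limits the precision.

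Names come from GEO's annotation of the platform, with symbols updated by gene ID through RefSeq (41043 of 41097 single-gene probe sets matched; 1801 name several genes and 11777 are unnamed here). The 4 line means were fitted with limma 3.58.1 in R 4.3.3 (lmFit, eBayes) to every single-gene probe set of all 12 arrays, with Benjamini-Hochberg adjustment over all 41097. Spread is pooled over the lines, and the wider SKR6LR replicates enlarge it. The labels call the replicates biological without saying whether they are separate derivations, so p-values measure the spread among these cultures. The fit was tested on simulated data. Counts of a gene list use the probe set of highest mean per gene, and 145 of 158 list entries were measured. Named list genes are the up to 4 called genes per list and comparison with the largest differences. PLEC, ITGA8, ITGAL, ITGA11, TGFB3, TGFBI, LTBP1, COL3A1, CDH5 and CD14 were chosen after their values were seen. So were EDIL3, DST and ITGA9 where given without a call. The members and lists were chosen with earlier results of these data known. Alternatives are given in the closing section. Same-numbered replicates did not deviate together (correlations of -0.033 to 0.095, 0 of 12 over 0.1).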

Additional observations from a re-analysis of the deposited data

How the results depend on the processing

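Over 26 alternative settings 820 of 878 integrin differences kept their direction and their side of the threshold, 26 lost a call, 25 gained one and 7 changed sign where at least 1 of the fits made a call. Differences of no call in either fit changed sign 10 times among all results tried.

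The 5 falls in SKR6CA against SKR6-Vector became 3 with the mean of each gene's probe sets and 2 without _x_at, _s_at and _a_at probe sets. They became 1 with SKR6 as the control and 4 to 5 without 1 array. The fall of ITGB1 (limma adjusted p = 0.0173) was not called at an adjusted p under 0.01. The rises, 0, became 1 with group weights, with only the compared arrays and with SKR6 as the control, and 0 to 1 without 1 array. The 7 rises in SKR6LR over SKR6 stayed at 7 to 8 without 1 array, became 5 without _x_at, _s_at and _a_at probe sets (ITGB1 and ITGB4 lost, ITGA3 not given, ITGB3 gained) and 6 with SKR6-Vector as the control, and were 7 in the other settings; the 1 fall became 0 with cyclic loess, with only the compared arrays and at an adjusted p under 0.01, and 0 to 1 without 1 array. The 3 rises in SKR6-Vector became 5 with group weights or only the compared arrays. They became 1 without the _x_at, _s_at and _a_at probe sets, and 3 to 5 without 1 array. ITGB4 lost its call there with the mean of the probe sets (limma adjusted p = 0.0630). ITGB5 gained one with cyclic loess (adjusted p = 0.0210) and with a mean-variance trend and robust fitting (0.0237). It also gained one with a filter on low values (0.0331) and with 1 probe set per gene fitted (0.0446). In SKR6CA against SKR6 the 1 rise became 2 with only the compared arrays and 0 without those probe sets; the 1 fall became 0 with cyclic loess, the mean of probe sets or an adjusted p under 0.01, 3 with group weights, 2 with only the compared arrays, and 0 to 2 without 1 array. At an adjusted p under 0.01 the calls over all genes went from 4688 to 3092 for SKR6-Vector and from 4454 to 2782 for SKR6CA, both against SKR6. The replicate block left all 8 of these counts as they were (5 falls in SKR6CA against SKR6-Vector, 7 rises and 1 fall in SKR6LR); among the other named results it ended the calls of 1 ITGB1 probe set in SKR6CA against SKR6-Vector (adjusted p = 0.0749) and of SHC1 in SKR6CA over SKR6 (adjusted p = 0.0541).

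With SKR6 as the control of SKR6CA, differences called against SKR6-Vector turned sign for ITGAV (0.090), ITGB1 (0.28, and 0.34 and 0.38 on a further pair of probe sets), ITGA9 (-0.028), LAMB1 (0.38), EDIL3 (0.070), FBN1 (0.82), TNS4 (-0.085), FYN (0.23), CDC42 (-0.063), CAV1 (1.45) and RAB25 (0.050). With SKR6-Vector as the control of SKR6LR, ITGB4 turned to -0.22 and LAMB1 to -0.36. Without _x_at, _s_at and _a_at probe sets, the rows left for ITGB1 and ITGB4 gave 0.050 and 0.067 in SKR6CA against SKR6-Vector, where FYN gave 0.23; ITGB4 gave -0.12 in SKR6LR and -0.095 in SKR6-Vector over SKR6; ITGB1BP1 gave 0.028 in SKR6LR and 0.062 in SKR6CA over SKR6; and NISCH gave -0.032 in SKR6-Vector over SKR6. The cause was not tested beyond the change of probe set or control that each setting makes. ITGA3 has only an _s_at probe set and could not be given there.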

Other observations

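Membrane proteins that associate with integrins differed widely between the lines. Of 11 such genes 6 rose and 3 fell in SKR6LR over SKR6 (median 0.48), beside 21.0% and 30.3% of all genes. Caveolin (CAV1) rose by 7.64, the urokinase receptor PLAUR by 2.57, the hyaluronan receptor CD44 by 1.83 and CD47, a partner of αVβ3, by 1.75. In SKR6-Vector over SKR6 3 rose and 2 fell (median 0.13), beside 11.4% and 12.3% of all genes. CAV1 stood at 4.83, CD47 at 0.89, CD44 at -0.85 (called on 1 of 13 probe sets) and PLAUR at -0.41. In SKR6CA against SKR6-Vector 4 rose and 3 fell (median 0.13), beside 10.9% and 14.2% of all genes. CAV1 stood at -3.38, CD44 at -2.56 (called on 3 of 13 probe sets), SLC3A2 at -0.63 and PLAUR at 0.65. In SKR6CA, CD44 was also lower than in SKR6, at -3.42 (limma adjusted p = 2.75e-07), with 6 of its 13 probe sets called there. CAV1 was higher in SKR6CA than in SKR6, by 1.45.

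Genes of integrin inhibition and traffic gave 2 higher and 6 lower of 9 in SKR6LR over SKR6 (median -0.35), beside 21.0% and 30.3% of all genes. RAB25, a small GTPase that recycles α5β1 in epithelial cells, fell by 3.50 (limma adjusted p = 4.43e-12), and the endocytic adaptor DAB2 rose by 2.81. DAB2 was also higher in SKR6-Vector than in SKR6, by 0.61, a call lost without any 1 of the 9 arrays outside SKR6LR. RAB25 rose by 1.67 in SKR6-Vector over SKR6 and differed by -1.62 between SKR6CA and SKR6-Vector, so that SKR6CA lay 0.050 from SKR6 (adjusted p = 0.785).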
